A study of Danio rerio with 9 samples.

Results

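A set of 138 oligonucleotide probes, of 16176 probe IDs on the array, detected transcripts present in the zebrafish (Danio rerio) embryo from the 64-cell stage. Their relative level fell across epiboly and gastrulation. The probes were chosen from the measured ratios. The 9 stages were put into an early period (64-cell, high and sphere), a middle period (30% epiboly, 50% epiboly and shield) and a late period (75% epiboly, 90% epiboly and tailbud). An ID was taken when its stage signal lay above the 95th percentile of blank spots, here called on, at each of the first 4 stages. Its mean log2 ratio had to be at least 2 lower in the late than in the early period and at least 1 lower in the late than in the middle period. It had to be less than 1 higher in the middle than in the early period, and at 30% epiboly less than 1 below sphere. Of the 16176 IDs, 7576 were on at the first 4 stages. In 648 of these the late period was at least 2 below the early one, in 235 of those also at least 1 below the middle one, and 138 met the bound on the step from sphere to 30% epiboly. The bound on a rise into the middle period removed no further ID.

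The samples were pools of 30 to 50 uninjected embryos per stage, all from 1 clutch of an outbred wild-type stock and raised at 28.5 °C. Each stage was hybridised once, its amplified RNA labelled with Cy5 (red) beside a Cy3 (green) pool of equal amounts of RNA from the 9 stages. The series text speaks of dye swaps, but no array with the stage in Cy3 was analysed here. Unless another scale is named, values below are ratios to the same pool, on the log2 scale, with the median of all probe IDs on that array set to 0. No stage had a replicate and every stage entered the choice of the set, so differences are described without a test. In such whole-embryo RNA, fewer cells holding a transcript and less of it per cell cannot be told apart.

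The egg supplies the embryo with maternal messenger RNA, which runs development until the embryo's own genome is switched on in the blastula. Maternal messages are then removed, some by factors stored in the egg and others only after zygotic products appear, among them a microRNA family that shortens poly(A) tails. In epiboly the blastoderm spreads until it covers the yolk, and the shield is the thickening that marks the organizer of the gastrula. Different maternal messages are known to be removed at different times. By construction the set described here leaves out IDs with a steep fall directly after sphere. It also leaves out IDs that fell too little from the early to the late period, 267 of which met the rest of the rule. Where the set lies in the range of known removal times was not tested.

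No gene name is attached to these IDs in the tables used, so known maternal genes could not be looked up and IDs are given sparingly. All 138 were on at the 64-cell stage, before the embryo's genome is broadly active, which the rule required. Loss of detection at the late stages was not general. At all 3 late stages 90 of the 138 IDs were on, 32 were on at 1 or 2 late stages and 16 at none. These were 65.2%, 23.2% and 11.6% of the set. Among all IDs on at the first 4 stages the shares were 95.3%, 3.68% and 1.06%. The rule required a lower late ratio, so more frequent loss of detection in the set follows from its choice. At 75% epiboly, 90% epiboly and tailbud 80.4%, 73.2% and 76.1% of the set were on, and 67.3%, 63% and 69.7% of all IDs. With most of its IDs still detected, the set is not called cleared. Whether the transcripts themselves remained was not tested. The name slowly falling, used below, is a label for the bound on the fall directly after sphere and not a measured rate. With each array centred on its median, 88 of the 138 IDs had their largest fall in a single step, from shield to 75% epiboly.

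With each array's median set to 0, the medians of the slowly falling set at the 3 early stages lay close together. Its median ratio at 64-cell, high and sphere was 1.37, 1.36 and 1.30. Over 30% epiboly, 50% epiboly and shield it was 0.80, 0.10 and 0.33, and over 75% epiboly, 90% epiboly and tailbud -0.78, -1.10 and -1.44. The SD over the 138 IDs was smallest at sphere (0.33) and largest at tailbud (0.59). At 64-cell, high and sphere every one of the 138 IDs lay above its array's median. At 50% epiboly 76 of them (55.1%) did, and of the late stages 75% epiboly had 4, 90% epiboly 1 and tailbud 0. Among the IDs on at the first 4 stages the share was 77.1%, 78.2% and 78.3% at the early stages and 71.3% at 50% epiboly. It was 66.2%, 68.9% and 65.2% at the late stages, and over all IDs centring sets it to 50%. The median difference was -2.40 between the late and the early period, a 5.29-fold lower ratio, and ranged from -4.16 to -2.004. Among all IDs with ratios, 5.76% fell by at least that 4-fold limit, and among IDs on at the first 4 stages 8.58% did. These values follow from the choice of the set.

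**Figure D1:**
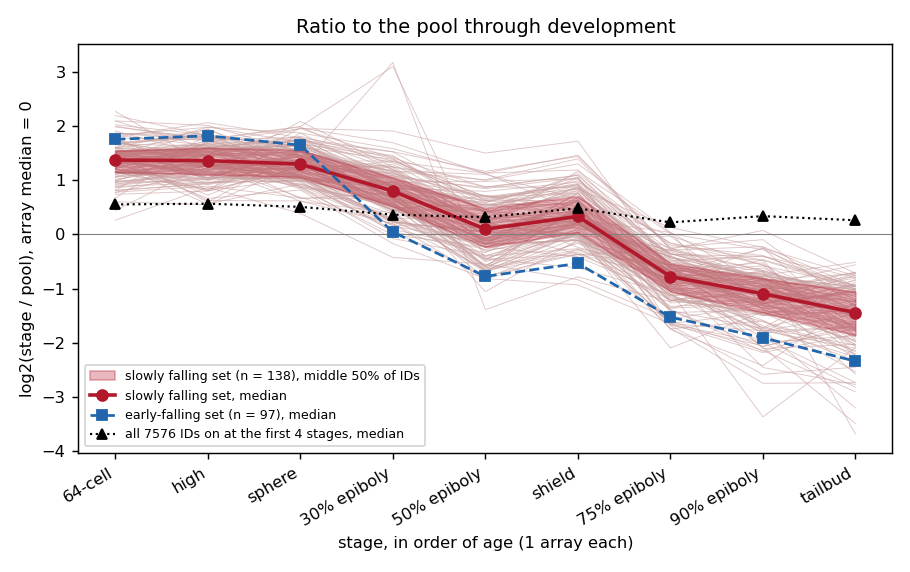
Log2 ratio of stage over pool (vertical axis, array median at 0) at the 9 stages in order of age, 1 array each. Thin lines are the 138 IDs of the slowly falling set, the band is their middle 50%, and the other lines are medians of that set, of the 97 early-falling IDs and of the 7576 IDs on at the first 4 stages. The median of the slowly falling set was 1.30 at sphere, 0.10 at 50% epiboly, a higher 0.33 at shield and -0.78 at 75% epiboly.

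Between 64-cell and high the median difference was 0.06, with quartiles of -0.22 and 0.20, against -0.18 and 0.19 over all IDs. At this step 0 of 138 IDs were at least 2-fold lower at high, against 0.918% of all IDs and 0.33% of those on at the first 4 stages. At least 2-fold higher at high were 2 IDs (1.45%), against 0.714% of all IDs and 0.383% of those on at the first 4 stages. Without centring the median of this step was -0.85 in the set and -0.89 over the IDs on at the first 4 stages, and it was the set's largest median fall between consecutive stages on that scale. The array median of the log2 ratio itself was 0.02 at 64-cell and -0.90 at high. Between high and sphere the median difference was -0.01, again with 0 IDs at least 2-fold lower, against 1.5% of all IDs and 1.43% of those on at the first 4 stages. At least 2-fold higher at sphere was 1 ID, against 2.41% of all IDs and 1.27% of those on at the first 4 stages. The highest value of the whole series lay at 64-cell for 43 IDs, at high for 48 and at sphere for 42. It lay at 30% epiboly for 4 and at 50% epiboly or shield for 1. These counts are given for the set alone, and the rule asked for a high early mean. IDs with several spots that were on had a median SD between spots of 0.30 at sphere and 0.40 at high, a spread within 1 array. No ID of the set was itself spotted more than once.

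With centring, the first clear fall of the set's median came between sphere and 30% epiboly, at -0.56. Lower at 30% epiboly were 132 of 138 IDs, against 50.3% of all IDs and 53.6% of those on at the first 4 stages. Without centring this step was -0.41 in the set, beside a rise of 0.10 over the IDs on at the first 4 stages. On that scale it was smaller than the -0.85 from 64-cell to high, a step of -0.89 over the IDs on at the first 4 stages. Which scale holds was not tested, so the start of the loss cannot be dated here. The rule capped the fall from sphere to 30% epiboly at less than 2-fold. Of all IDs 11.7% reached that limit, and of those on at the first 4 stages 13.3% did. From 30% to 50% epiboly the median difference was -0.67, and 28 IDs (20.3%) were at least 2-fold lower at 50% epiboly. Of all IDs 1.59% were, and of those on at the first 4 stages 2.48%. The shield array then stood above the 50% epiboly array by a median of 0.27, and 25 of 138 IDs were lower at shield, against 48.3% of all IDs and 25.9% of those on at the first 4 stages, whose median was 0.17. At least 2-fold lower at shield were 0 of 138 IDs, against 0.98% of all IDs and 0.0924% of those on at the first 4 stages. After normexp background correction and loess, which removes trends with brightness within an array, the rise was 0.08 in the set and 0.00 over the IDs on at the first 4 stages. Without centring it was 0.33 in the set and 0.23 over those IDs, and in the Cy5 channel alone 0.05 and -0.04.

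The largest single fall came between shield and 75% epiboly, with a median difference of -1.19. At least 2-fold lower at 75% epiboly were 87 of 138 IDs (63%), against 4.09% of all IDs and 7.24% of those on at the first 4 stages. This contrast joins 2 stages whose period means the rule compared, and so is described only. Of the 8 steps it held the largest fall for 88 IDs (63.8%). It did so for 17% of all IDs and 30.1% of those on at the first 4 stages. Of the 648 IDs with a late period at least 2 below the early one, 17.3% had it there. The step from 30% to 50% epiboly held it for 18 (13%), against 6.98% and 7.57%. That from 90% epiboly to tailbud held it for 18 (13%), near the 13.5% of all IDs and the 12.5% of those on at the first 4 stages. The step from sphere to 30% epiboly, which the rule capped, held it for 7 (5.07%), against 21% and 24.7%. That from 75% to 90% epiboly held it for 7 (5.07%), against 13.6% and 6%. The ratio went below the midpoint between the early and late means, without a later return above it, at 75% epiboly for 97 IDs and at 50% epiboly for 31. It did so at shield for 6, at 30% epiboly for 2 and at 90% epiboly for 2. These counts, too, are given for the set alone.

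The place of this largest fall depended on how the arrays were scaled. The shield array was the dimmest, with a median Cy5 spot signal of 324.5, against 980 at 75% epiboly, and the array median of the log2 ratio was 0.53 higher at 75% epiboly than at shield. Without centring, the fall between these stages had a median of -0.66 and was the largest step for 20.3% of the set, against 63.8% with centring. Over the IDs on at the first 4 stages this step was then a rise of 0.26. With normexp and loess it was -0.88 in the set and -0.05 over those IDs, and it was the largest step for 58% of the set. In the Cy5 channel alone it was -1.04 and -0.10, and the largest step for 46.4% of the set. Under these other scalings the share with the largest step here was computed for the set alone. A fall from the middle to the late mean was required by the rule. The rule also capped the fall from sphere to 30% epiboly. Among the 648 IDs with a late period at least 2 below the early one, that step held the largest fall for 449 (69.3%). How far these parts of the rule place the set's largest fall between shield and 75% epiboly was not tested.

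**Figure D2:**
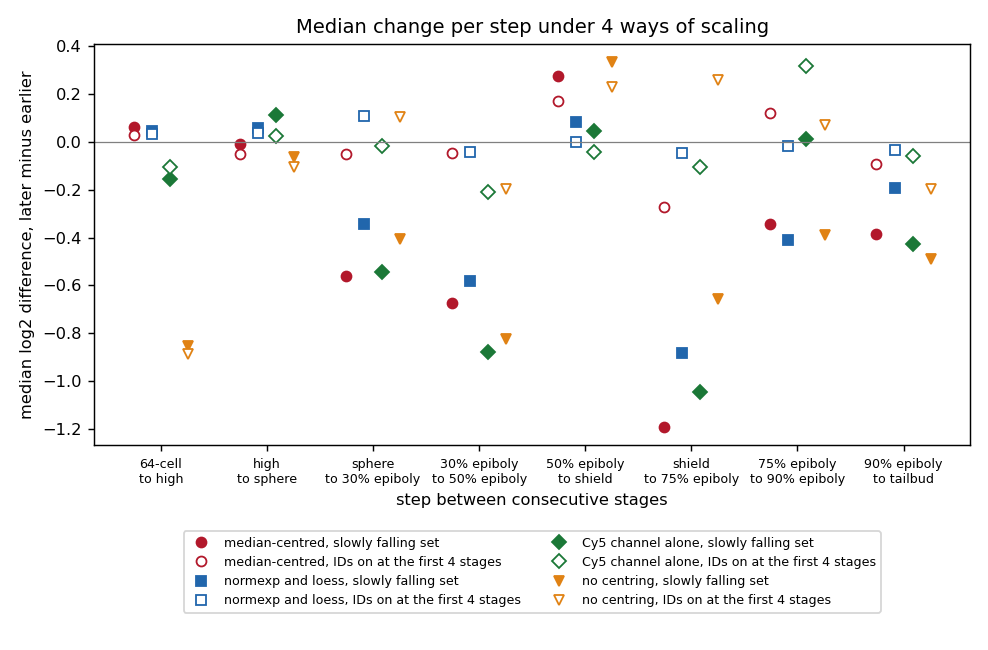
Median log2 difference (vertical axis, later minus earlier stage) at each of the 8 steps between consecutive stages. Filled symbols are the 138 IDs of the slowly falling set, open symbols the IDs on at the first 4 stages, and colours are 4 scalings. At the step from shield to 75% epiboly the filled symbols lie between -1.19 and -0.66 and below the open ones.

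Inside the late period the set's ratios were lower at tailbud than at 75% epiboly. All 3 late stages entered the late mean of the rule, so this too is a description. The median difference between tailbud and 75% epiboly was -0.67, and 121 of 138 IDs were lower at tailbud, against 53.1% of all IDs and 45.8% of those on at the first 4 stages. At least 2-fold lower at tailbud were 44 IDs (31.9%), against 6.56% of all IDs and 3.28% of those on at the first 4 stages, whose median was 0.04. The step from 75% to 90% epiboly had a median of -0.34, with 10 IDs at least 2-fold lower, against 3.2% of all IDs and 0.873% of those on at the first 4 stages. The step from 90% epiboly to tailbud had a median of -0.38, with 14 IDs at least 2-fold lower, against 3.27% of all IDs and 1.78% of those on at the first 4 stages. In 69 IDs the ratio fell at both late steps, which held for 20.9% of all IDs and 16.5% of those on at the first 4 stages. The lowest value of the 9 stages lay at tailbud for 93 IDs, at 90% epiboly for 38 and at 75% epiboly for 6. Of the 15955 IDs with a ratio at every stage, it lay at tailbud for 3202, at 90% epiboly for 1862 and at 75% epiboly for 1259. Of the 7555 such IDs on at the first 4 stages, it did for 1766, 803 and 1003.

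The fall between 75% epiboly and tailbud was negative under the other scalings as well, while its size varied. Its median was -0.55 with normexp and loess, with 27 IDs at least 2-fold lower (19.6%, against 2.34% of the IDs on at the first 4 stages). It was -0.45 in the Cy5 channel alone and -0.82 without centring. In the Cy5 channel alone the part from 75% to 90% epiboly was close to flat, at 0.01, beside a rise of 0.32 over the IDs on at the first 4 stages. Among the 86 IDs on at all 9 stages, 22.1% were at least 2-fold lower at tailbud than at 75% epiboly, against 31.9% of the whole set.

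**Figure D3:**
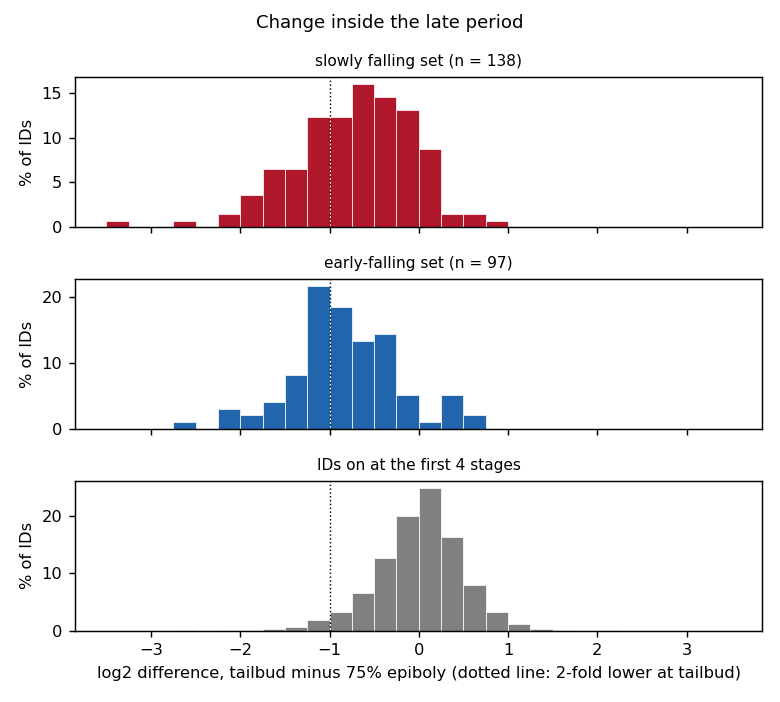
Log2 difference between tailbud and 75% epiboly (horizontal axis) and percent of IDs per bin (vertical axis) in the slowly falling set (138 IDs), the early-falling set (97 IDs) and the IDs on at the first 4 stages. The slowly falling set is shifted to the left, with 31.9% of IDs at or beyond the dotted line of a 2-fold lower ratio, against 3.28% of the IDs on at the first 4 stages.

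The members differed in how much of their fall was made by the middle period. The share of the early-to-late difference already present in the mean of 30% epiboly, 50% epiboly and shield had a median of 38.2% and ran from -3.31% to 60.9%. The share depends on the scaling: without centring the median difference was -1.19 between the middle and early period and -1.04 between the late and middle period, against -0.92 and -1.496 with centring. It was under 25% for 32 IDs, from 25% to below 50% for 76, and 50% or more for 30. In 5 IDs the middle mean was above the early mean. For the 32 IDs that kept most of their level, the median was 1.42 at sphere. It was 1.24, 0.65 and 0.86 over 30% epiboly, 50% epiboly and shield, and -0.63, -1.18 and -1.65 over 75% epiboly, 90% epiboly and tailbud. The median of these IDs, like that of the whole set, stayed above the array median until shield and lay below it at 75% epiboly. For the 30 IDs that had made at least 50% of their fall, medians were 1.46 at 64-cell and 0.42 at 30% epiboly. They were -0.32 at 50% epiboly, a higher 0.002 at shield, -0.89 at 75% epiboly and -1.43 at tailbud. At shield 29 of the 32 late-falling IDs and 16 of the 30 that fell sooner were on, beside 77.3% of the IDs on at the first 4 stages, and the split itself used the shield ratio.

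**Figure D4:**
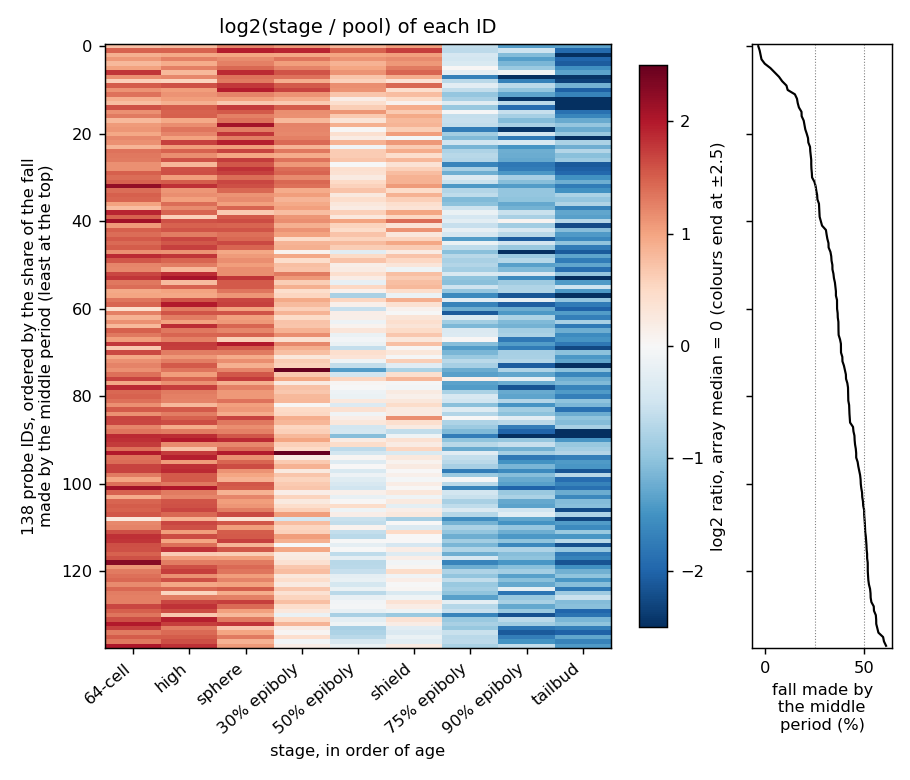
Each of the 138 IDs is a row and each stage a column, coloured by the log2 ratio of stage over pool (array median at 0). Rows run from the smallest to the largest share of the fall made by the middle period, plotted at the right in percent, with dotted lines at 25% and 50%. Rows near the top stay red through shield, rows near the bottom turn pale at 50% epiboly, and 2 rows with a dark cell at 30% epiboly stand apart.

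By ID, the 2 members with the largest fall among those on at all 9 stages were followed. CGENXEB_456007565_0 had ratios of 2.09, 2.01 and 1.52 at 64-cell, high and sphere. Over 30% epiboly, 50% epiboly and shield they were 0.70, -0.51 and 0.03, and over 75% epiboly, 90% epiboly and tailbud -1.65, -1.997 and -1.87. Its late minus early difference was -3.71, a 13.1-fold lower ratio, and its 3 late values lay close together. Its spot was bright, 57.1 times the blank level at 64-cell, with 2.39 times at shield and 2.5, 2.62 and 3.27 times at the 3 late stages, and carried no scanner flag on any array. CGENXEB_456010611_0 had ratios of 1.79, 2.06 and 1.78 at 64-cell, high and sphere. Over 30% epiboly, 50% epiboly and shield they were 1.09, 0.18 and 0.64, and over 75% epiboly, 90% epiboly and tailbud -1.003, -1.59 and -2.54. Its late minus early difference was -3.59, a 12.0-fold lower ratio, and its ratio was lower at each late stage than at the one before. It carried a scanner flag on 2 arrays, 75% and 90% epiboly, and at tailbud lay at 1.42 times the blank level.

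A pair of IDs rose before they fell, and were singled out after their values were seen. CGENXEB_456015606_0 had ratios of 1.15, 1.35 and 1.22 at 64-cell, high and sphere. Over 30% epiboly, 50% epiboly and shield they were 3.17, -1.39 and -0.78, and over 75% epiboly, 90% epiboly and tailbud -1.24, -0.76 and -1.03. CGENXEB_456016382_0 had 1.99, 1.76 and 1.99 at the first 3 stages, 3.10, -0.46 and -0.37 at the middle 3 and -0.28, -0.84 and -0.72 at the last 3. These were the only members at least 2-fold higher at 30% epiboly than at sphere, a rise that 7.78% of all IDs and 6.86% of those on at the first 4 stages showed. Their spots touch at the corner on the array, in block 15 at row 8, column 2 and at row 7, column 1. On the 30% epiboly array both carried a scanner flag, and their local Cy5 background was 281 and 290, against a median of 143 over the probe spots of that array. On the other 8 arrays their Cy5 background lay between 104 and 176. Neither was on at 50% epiboly or shield, and CGENXEB_456015606_0 carried a scanner flag on both of these arrays too. The part of this background in the 30% epiboly ratio was not tested. Without both IDs the median difference between the late and early period stayed at -2.40 over the other 136 IDs.

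Relative to the blank spots, the set's median Cy5 signal was lowest at shield and stayed low at the late stages. Over all IDs on at the first 4 stages the median multiple of the blank level rose from 1.61 at shield to 3.19 at 75% epiboly. The median spot signal of the set was 10.7, 6.27 and 6.86 times the blank level at 64-cell, high and sphere. It was 4.47, 2.18 and 1.54 times that level over 30% epiboly, 50% epiboly and shield, and 1.77, 1.60 and 1.71 times over 75% epiboly, 90% epiboly and tailbud. Of the 138 IDs, 125 were on at 50% epiboly and 102 at shield. Over 75% epiboly, 90% epiboly and tailbud 111, 101 and 105 were on. Among all IDs on at the first 4 stages the share on was 95% at 50% epiboly and 77.3% at shield, and 97.3%, 96.7% and 97.8% over the 3 late stages. The lower late shares of the set follow from the late fall that the rule required. The number on was lowest at 90% epiboly and shield, and the shield array was also the dimmest, whose part in the count was not tested. Where an ID was not on, its ratio is poorly measured and its fall has no exact size.

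In rank among all IDs, the set's median Cy5 signal stood at the 86.1st percentile in the early period, at 77.0 in the middle and at 51.4 in the late period. The pool channel, which held the same RNA on every array, moved far less than the stage channel. Over the 9 arrays the set's median range was 0.79 in the pool channel and 3.18 in the stage channel. Over all IDs these median ranges were 0.75 and 1.56. The pool channel's median change was -0.20 from the early to the middle and 0.13 from the middle to the late period. The median of its late minus early difference was -0.04 on the log2 scale, with 2 of 138 IDs (1.45%) at least 2-fold lower, against 0.454% of all IDs and 0.264% of those on at the first 4 stages. In the Cy5 channel alone the corresponding difference was -2.46, and all 138 IDs were at least 2-fold lower, against 19.4% of all IDs and 27.8% of those on at the first 4 stages. The rule chose the set by a ratio with Cy5 as its numerator, so the fall in Cy5 and in its rank follows from that choice. The median rank in the pool was 75.4, near the 75.0 of all IDs on at the first 4 stages. On at least 1 array 3 IDs reached the top of the scanner's range, where a higher level could not have been read.

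**Figure D5:**
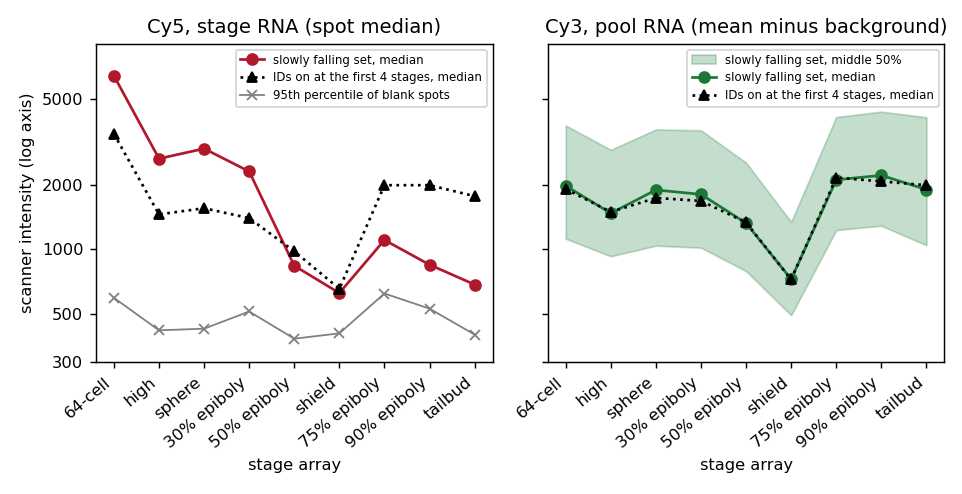
Scanner intensity (vertical log axes) by stage array. The left panel gives the median Cy5 spot signal of the slowly falling set, of the IDs on at the first 4 stages and the 95th percentile of blank spots, and the right panel the Cy3 signal of the pool with the set's middle 50%. The set starts above the IDs on at the first 4 stages in Cy5 and ends below them. Its Cy5 median was 6404 at 64-cell and 686.8 at tailbud, while its pool signal follows theirs.

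The set was placed beside the 97 early-falling IDs, which met every other part of the rule but fell by at least 2-fold between sphere and 30% epiboly. The median late minus early difference was -2.40 in the slowly falling set and -3.75 in the early-falling set, a difference that the choice of the sets shapes. Medians at sphere were 1.30 in the slowly falling and 1.65 in the early-falling set, and at shield 0.33 and -0.54. From shield to 75% epiboly both sets fell again, with medians of -1.19 in the slowly falling and -1.004 in the early-falling set. From 75% epiboly to tailbud the medians were -0.67 and -0.84, and 31.9% and 40.2% of the IDs were at least 2-fold lower. The step from shield to 75% epiboly was the largest for 63.8% of the slowly falling and 17.5% of the early-falling IDs, for which the step from sphere to 30% epiboly led with 74.2%. The sets were split on the size of the fall from sphere to 30% epiboly, so this contrast follows from how they were defined. At all 3 late stages 65.2% of the slowly falling and 55.7% of the early-falling IDs were on. None of these differences between sets was tested.

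The limit between both sets cuts a continuous range. The nearest values of the difference between 30% epiboly and sphere were -0.99 inside and -1.01 outside, and 16 members and 11 early-falling IDs lay within 0.1 of it. At the limit on the late and early means, 22 members lay within 0.1 inside and 24 IDs that met the rest within 0.1 outside. At the limit on the late and middle means, the nearest values were -1.01 inside and -0.98 outside.

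On the array, the spots of the set were found in all but 1 of the 32 print blocks, with between 0 and 13 per block, the most in block 28. Without block 28, 125 IDs remained, with a median difference of -2.39 between the late and early period. Of the set, 89 IDs carried no scanner flag on any array and 14 carried one on at least 3, counts given for the set alone. Over all pairs of ID and array, 7.97% were flagged in the set and 11.6% among all IDs. Beside the 7576 IDs on at the first 4 stages, however, the set was flagged more often at every stage but sphere. At 75% epiboly 21 of 138 IDs were flagged, against 801 of those 7576, and at sphere 2 against 111.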

How the data were processed

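Scanner tables of 9 arrays were used. Per the file headers they come from Imagene and hold spot and background intensities on a linear scale. The authors deposited these intensities without normalization. The authors' deposited value table holds log2 ratios. With the probe prefix matched by 1 changed letter, its 1242 values for the set equalled, within 0.001, the uncentred ratios computed here. What the flag codes mean was not stated in the labels or headers. Per the labels, the stage was Cy5 on all arrays. Dye effects were not tested beyond the alternative with loess.

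Ratios were log2 of Cy5 over Cy3, each as spot mean minus background mean, averaged over the spots of an ID and centred on the median of the 16176 IDs. IDs without a ratio on some array (221) could not be members. The alternative with normexp (offset 50) and loess used limma 3.58.1 in R 4.3.3, and other steps Python 3.11.15. The members and comparison sets were chosen with earlier results of these data known. IDs were named by the largest fall among members on at all 9 stages. With 1 array a stage, the count of arrays sets the precision. No gene lists could be applied, because IDs are not paired with gene names.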

Additional observations from a re-analysis of the deposited data

How the results depend on the processing

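The rule found between 133 and 165 IDs under the background median, signals averaged first, the deposited table with medians subtracted, the Cy5 channel alone, a blank limit at the 99th percentile, no blank limit and means over available ratios. The 165 came from the Cy5 channel alone, and 114 of the 138 were among them. With normexp and loess the rule found 74 (50 of the 138 among them), without centring 66 (60 shared), and with flagged spots left out 68. Looser and stricter thresholds gave 346 and 44 IDs, by their construction. Leaving out 1 stage gave 47 to 204 IDs. The 47 came without 30% epiboly, where the bound on the early step has to be read from sphere to 50% epiboly.

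The median late minus early difference was -1.91 with normexp and loess, and -1.98 and -3.04 with looser and stricter thresholds. Leaving out 1 stage gave -2.588 to -2.269. The median late minus middle difference was -1.04 without centring, where the array medians rose by 0.46 from the middle to the late period, and -1.95 with stricter thresholds. Leaving out 1 stage gave -1.671 to -1.325. The share at least 2-fold lower at tailbud than at 75% epiboly was 19.6% with normexp and loess, 19.6% in Cy5 alone, 21.7% with looser thresholds and 22.1% among IDs on at all 9 stages. Leaving out another stage cannot change this share (31.9%), which uses these 2 arrays alone. The share with the largest fall between shield and 75% epiboly was 20.3% without centring, 46.4% in Cy5 alone and 77.9% among IDs on at all 9 stages. Leaving out 1 stage gave 44.2% to 71.0%, the lowest without 30% epiboly. These shares of the largest fall were computed for the set alone. The causes were not tested beyond what is stated. The rule fixes the sign of both medians. The alternatives that take IDs away for a dim spot, a block or the 30% epiboly peak were added after the data were seen. No paired analysis was possible because each stage has 1 array.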
